A study of Drosophila melanogaster with 5 samples.

Results

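The genes described here are the 53 *Drosophila melanogaster* genes that carried only a CG number on the arrays, and no gene name, and whose spots were detected in syncytial embryos of stages 2 to 3 (S2-3). They were selected on measured values. A gene was taken when at least 1 of its spots reached the background mean plus 1 background SD, with a net signal above 0, on at least 2 of the 4 S2-3 membranes. The library had 259 genes, of which 105 had a CG number only. Of these, 43 were detected on 0 or 1 S2-3 membrane, and 9 that passed were left out by name. Since the S2-3 signal chose the genes, all differences from S2-3 below are descriptions. Counts of calls against S2-3 are given beside the share of all features called, except under alternative settings, and nothing is read from them.

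The study followed hand-staged whole embryos of the Canton S wild type strain at 5 intervals, the syncytial one (S2-3), S5 with cellularized blastoderms, S6-7 with gastrulae, S8-9, and S10-12. RNA of 100 embryos per extraction, by the labels, was turned into SMART-cDNA (PCR-amplified full-length cDNA), labeled with 32P and hybridized to nylon membranes printed with clones of a cDNA library. That library had been made by subtraction to enrich transcripts of gastrulae over those of syncytial embryos. There is 1 deposited sample per interval with 4 membranes, A to D, and the cDNA was labeled in separate events whose membranes are not stated. Nothing states that the membranes came from separate embryo samples, so every SE and p below measures the spread between membranes only. Whole embryos were used, so fewer cells that hold a transcript and less transcript per cell cannot be told apart.

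Before zygotic transcription begins in earnest, the RNA of a fly embryo is mostly what the mother loaded into the egg. Maternal transcripts are then cleared while the embryo's own genes are switched on around cellularization, so that a transcript present in syncytial embryos can later fall, persist or be made anew. Many such transcripts encode housekeeping proteins of the mitochondrion, the spliceosome and the secretory pathway. In the current RefSeq annotation (Release 6), 52 of the 53 genes matched an entry, and 24 now have a name. A further 3 are listed under another CG number, 25 keep their own, and CG41421 had no match. By the domains given in the study's list and by these names, 4 encode membrane or secreted proteins, 7 act in mitochondria or metabolism, 10 in the nucleus, chromatin or RNA, and 12 in signaling, trafficking or protein modification. For the other 20 no role is given here. The study's own list of up-regulated genes holds 23 of the 53; it was chosen on these same samples and is no independent evidence.

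Levels are given as log2 of the net intensity over the RP49 median of that membrane, where RP49 encodes a ribosomal protein and 0 equals its level. A gene's level is the mean of its clones, and a clone is printed as 2 spots. RP49 medians ran from 0.0128 to 0.669 net intensity over the 20 membranes. The coefficient of variation of RP49 spots was 48.0 to 125.4% per membrane at S5, the widest spread of the 5 intervals, against 21.3 to 36.7% at S2-3. Between 22.7 and 94.4% of library spots per membrane passed the signal rule, and the number of membranes limits the precision. Blank solvent spots passed in 2 of 560 cases at S2-3, and in 82, 51, 34 and 45 of 560 in the 4 later intervals, in order of age. Of the printed stage markers, Sry-alpha (cellularization) passed in 0, 16, 17, 4 and 0 of 30 spots from S2-3 to S10-12. Of 34 spots each, the mesoderm gene sna passed in 0, 13, 6, 3 and 7, twi in 5, 16, 19, 12 and 8 and tin in 8, 9, 22, 22 and 17. For fog, which acts in cell invagination, 0, 3, 0, 0 and 0 of 34 passed, with none at S6-7.

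Most members were dim at S2-3. The median of their mean log2 levels was -2.44, with a range of -3.60 to 2.42, and 3 genes lay above RP49. Detection was on 4 membranes for 16 members, on 3 for 22 and on 2 for 15. Just inside the rule, the second-best S2-3 membrane of CG6954 and CG14641 reached 1.07 and 1.08 background SDs over background. Just outside it, CG8654 and CG4440 reached 0.96 and 0.87. In the intervals that the rule did not use, 51, 52, 47 and 48 of the 53 members were detected on at least 2 membranes, from S5 to S10-12. The 42 dimmer CG genes that failed the rule and were not left out by name were detected in 26, 25, 27 and 22 cases. Of the 152 genes with a name, which were not selected on their S2-3 signal, 127, 128, 120 and 119 were detected. After the filter on duplicate spots, all 53 members kept a level on at least 2 membranes of S2-3. From S5 to S10-12 the numbers were 49, 52, 47 and 48, and 43 members had this in all 5 intervals. On membrane D 38 members were printed as 1 clone (71.7%, against 65.5% of all library genes) and 15 as 2 to 6 clones.

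**Figure D1:**
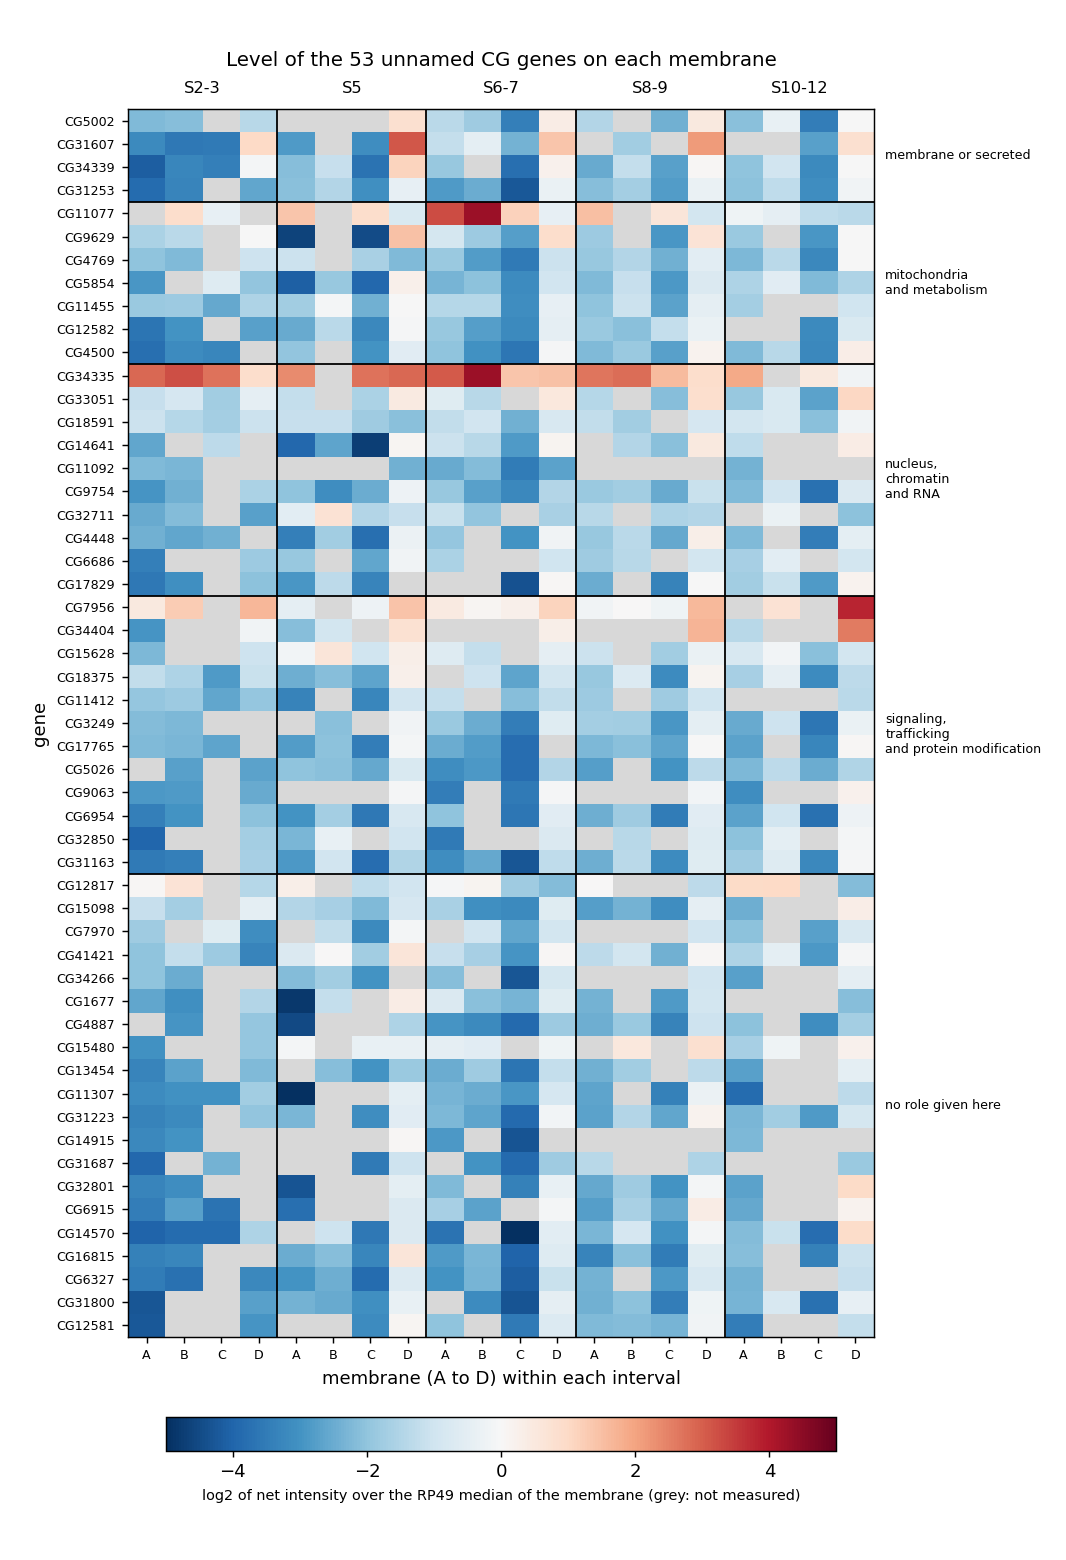
Level of each of the 53 members (rows, grouped by role and ordered by their S2-3 mean) on the 20 membranes (columns, A to D within each interval), as log2 of net intensity over the RP49 median of the membrane. Most cells are below RP49 (blue), CG34335 is above it in 17 of its 18 measured cells, and membrane D reads higher than A to C for most genes in every interval.

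Levels also differed between membranes. Membrane D carries the whole library in another layout than A to C. Among members measured on both, D exceeded the mean of A to C in 34 of 40 at S2-3, 41 of 47 at S5, 46 of 50 at S6-7, 42 of 47 at S8-9 and 43 of 48 at S10-12. The median excess in log2 was 0.99, 2.12, 1.93, 1.76 and 1.97. Over all features it was 0.78, 1.81, 1.63, 1.39 and 1.63, so the excess was not limited to the members. The median SD of a member over the 4 membranes was 0.67 at S2-3 and 1.05 to 1.39 later. Because a gene can miss other membranes at S2-3 than later, differences are given below from the interval means and also membrane by membrane of the same letter. The fit was made both without the letter and with the letter as a replicate block, treating it as a technical batch.

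Relative to RP49 the members were on balance higher in every later interval than at S2-3, and so was the median of all features. The median log2 difference of members was 0.58, 0.56, 0.91 and 0.90 from S5 to S10-12. Over all features tested it was 0.83, 0.56, 0.95 and 1.09. Positive differences were found for 37 of 49, 38 of 52, 42 of 47 and 43 of 48 members. Over all features they were found for 127 of 159, 133 of 169, 137 of 155 and 137 of 154. With each membrane instead scaled to its 75th percentile, the median of all features was 0.08, 0.10, -0.02 and 0.31 and that of the members -0.24, -0.01, -0.18 and 0.14. On that scale 21 of 49, 25 of 52, 19 of 47 and 26 of 48 members had a positive difference. After quantile normalization the members' median was -0.08, -0.03, -0.08 and -0.14. Without the letter, limma called 0 of 49 members at S5, beside 5.03% of all features. It called 0 of 52 at S6-7 (4.14% of features), 0 of 47 at S8-9 (3.87%) and 0 of 48 at S10-12 (3.25%). At an unadjusted p under 0.05, 3, 1, 1 and 1 members were higher and 0 lower. Of all features, 20 of 159, 15 of 169, 24 of 155 and 20 of 154 were higher at that threshold, and 1, 0, 1 and 0 lower.

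With the letter as a replicate block, 19 of 49 members were called higher at S5, beside 42.1% of features, and 9 of 52 at S6-7, beside 25.4%. At S8-9 15 of 47 were called higher, beside 45.8%, and at S10-12 15 of 48, beside 45.5%. Called lower were 1 member at S5 (CG14641, 1.26% of features), 0 at S6-7 (0.0%), 0 at S8-9 (0.645%) and 1 at S10-12 (CG34335, 2.6%). Since the S2-3 signal selected the genes, nothing is read from these counts. With the block and 75th percentile scaling together, 0, 1, 0 and 2 members were called higher and 4, 1, 3 and 1 lower. The share of all features called in that fit is not given here, and nothing is read from these counts either.

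**Figure D2:**
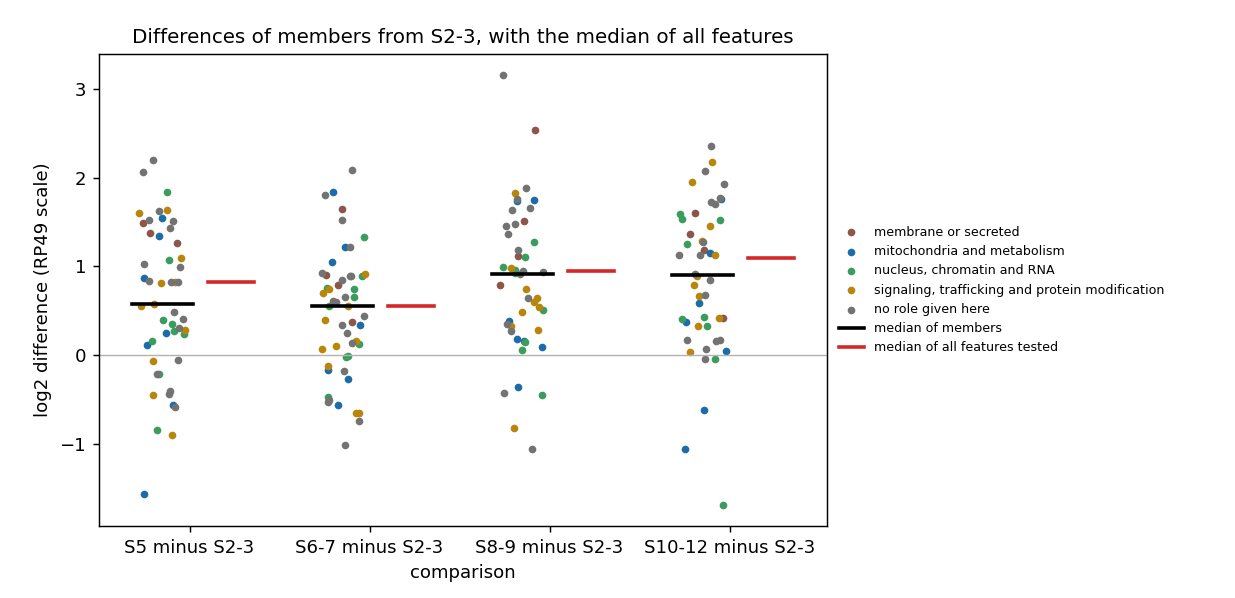
Log2 difference on the RP49 scale of each member from S2-3 (points, coloured by role) in the 4 later intervals, without the letter block, with the median of the members (black bar) and the median of all features tested (red bar). The members' medians of 0.58, 0.56, 0.91 and 0.90 lie near those of all features, 0.83, 0.56, 0.95 and 1.09.

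Of the 4 membrane or secreted members, CG31253, for which the study predicted a signal peptide, was printed as 2 clones on A to C. Its log2 levels were -3.85, -3.31 and -2.60 on A, B and D at S2-3 and -2.09, -1.46, -3.07 and -0.42 on A to D at S5. They were -2.84, -2.48, -4.22 and -0.33 on A to D at S6-7, -2.13, -1.69, -2.81 and -0.33 on A to D at S8-9 and -2.04, -1.28, -3.11 and -0.16 on A to D at S10-12. Every membrane letter measured in both was higher in each later interval than at S2-3, by 1.75, 1.85 and 2.18 (A, B, D) at S5 and by 1.80, 2.03 and 2.43 at S10-12. Not all of these differences compare the same clones. On B the S2-3 level comes from 1 clone (-3.31) and the S10-12 level from the other (-1.28). On D the S2-3 level comes from 1 spot of a clone not on A to C (-2.60). Later D levels average 4 clones, and that clone alone read 0.10 at S5 and -0.62 at S10-12. Taken over all membranes, the levels of each later interval overlapped those of S2-3. CG34339, now part of the endocytic receptor gene mgl (Megalin), read -4.12, -3.26, -3.41 and -0.09 on A to D at S2-3, -2.12, -1.16, -3.68 and 1.10 on A to D at S5, -1.88, -3.78 and 0.21 on A, C and D at S6-7, -2.51, -1.20, -2.73 and 0.05 on A to D at S8-9 and -2.03, -0.96, -3.17 and -0.02 on A to D at S10-12. Its difference from S2-3 on A and B was 2.00 and 2.11 at S5 and 2.09 and 2.31 at S10-12, while on C it was -0.27 and 0.24 and on D 1.20 and 0.07.

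CG31607, the other gene with a predicted signal peptide, had the second-highest mean difference from S2-3 over the 4 intervals, 1.73. Its levels were -3.20, -3.56, -3.55 and 1.00 on A to D at S2-3, -2.82, -3.12 and 3.09 on A, C and D at S5, -1.20, -0.50, -2.38 and 1.38 on A to D at S6-7, -1.72 and 2.14 on B and D at S8-9 and -2.73 and 0.79 on C and D at S10-12. Membrane D stood apart from the other S2-3 membranes. The 2 clones on D differed: the clone printed on D alone read 4.07 at S5 and 1.94 at S2-3, and the clone shared with A to C read -1.66 and -2.76. On A to C, the S6-7 levels lay above the S2-3 levels without overlap, with a difference of 2.08 (SE 0.66, n = 3 and 3 membranes). CG5002, a sulfate transporter, had a level only on D at S5 (0.81). It read -2.09, -0.38, -3.46 and -0.02 on A to D at S10-12 and -2.21, -2.12 and -1.39 on A, B and D at S2-3, with A, B and D higher by 0.12, 1.74 and 1.37 at S10-12.

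Among the mitochondrial and metabolic members, CG11077 changed between later intervals. CG11077, now Mpv17, encodes a protein of the inner mitochondrial membrane. Its log2 levels were 0.87 and -0.40 on B and C at S2-3, 1.37, 0.86 and -0.78 on A, C and D at S5, 3.28, 4.29, 1.15 and -0.41 on A to D at S6-7, 1.49, 0.61 and -0.92 on A, C and D at S8-9 and -0.21, -0.46, -1.26 and -1.33 on A to D at S10-12. It was highest at S6-7 on every membrane. On A to C the S10-12 and S6-7 levels did not overlap, and all 4 membranes were lower at S10-12 than at S6-7, by -3.48, -4.75, -2.41 and -0.91 on A to D. The log2 difference of S10-12 minus S6-7 was -2.89. Without the letter it did not pass limma's test over all features (SE 0.86, n = 4 and 4 membranes, adjusted p = 0.151). With the letter as a replicate block it fell (SE 0.46, adjusted p = 3.35e-04), and on A to C alone it fell also without the block (-3.55, SE 0.69, n = 3 and 3 membranes, adjusted p = 3.47e-04). The adjusted p over the settings tried ran from 3.47e-04 to 0.999 without the block, the highest when membrane A was left out. In the block fit it stayed at 0.0450 or below without each membrane in turn, and was 5.23e-04 with 75th percentile scaling. The raw signals of CG11077 on membrane C at S6-7, 2.407 and 2.403, included the highest of any spot on the 20 membranes. On membrane A at S6-7 they were 2.257 and 2.258 over local backgrounds of 1.70 and 1.09, and only the spot with the lower background passed. The scanner's limit is not given in the sources used here, and were these spots saturated, the S6-7 levels on A and C would be lower bounds.

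**Figure D3:**
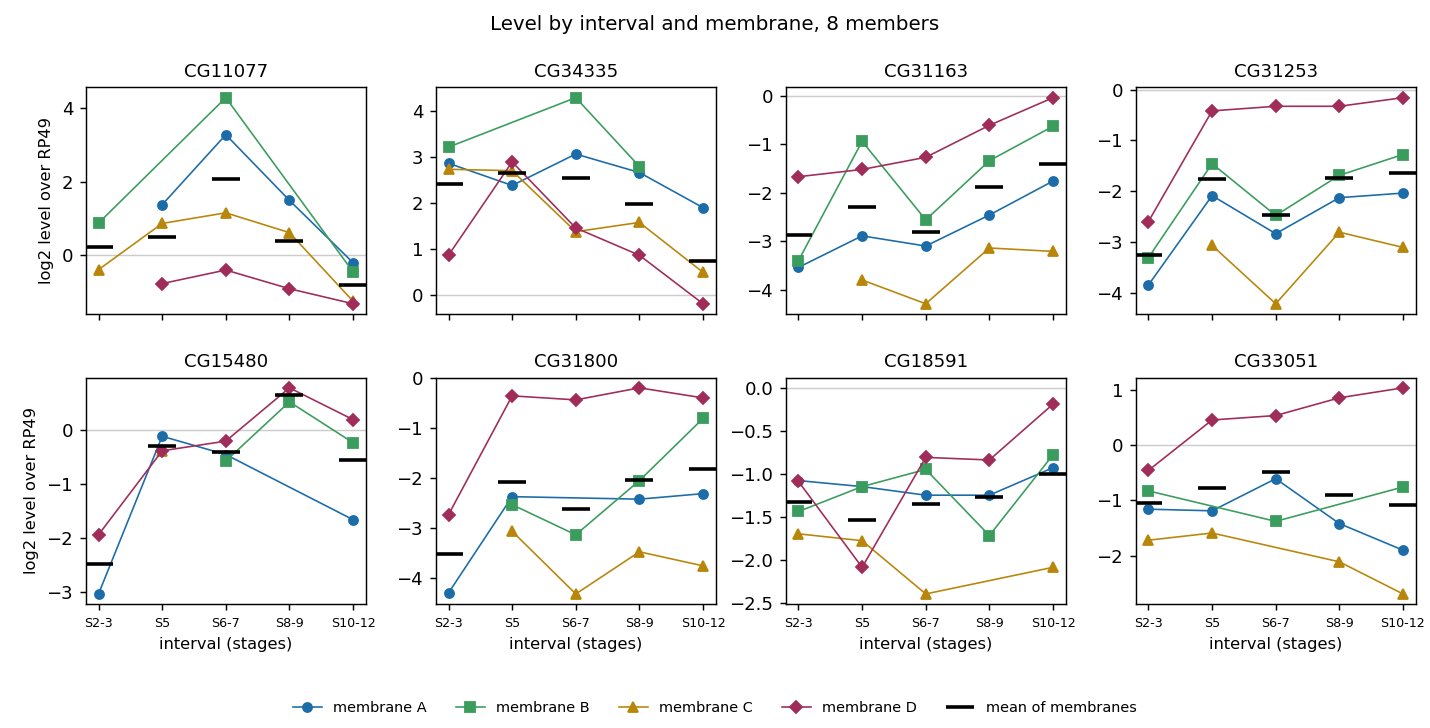
Log2 level over RP49 (vertical axis) of 8 members in the 5 intervals (horizontal axis), with a line for each membrane letter joining its measured values and a black bar for the mean of the membranes. CG11077 was highest at S6-7 on all 4 membranes and reached -0.21 to -1.33 at S10-12, CG34335 was lowest at S10-12, and CG31253 and CG31800 lay above their own S2-3 level on every shared membrane, while the means of CG18591 stayed between -1.54 and -1.0. The vertical axes differ between panels.

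CG9629, the aldehyde dehydrogenase Aldh7A1, had the lowest mean difference from S2-3, -0.67. It read -1.60, -1.35 and -0.01 on A, B and D at S2-3, -4.63, -4.47 and 1.45 on A, C and D at S5, -0.87, -1.83, -2.77 and 0.89 on A to D at S6-7, -1.82, -2.92 and 0.69 on A, C and D at S8-9 and -1.86, -2.90 and -0.02 on A, C and D at S10-12. The low S5 levels on A and C each rest on 1 passing spot, and B, left out there because its duplicates differed too much, read -1.10. On A to C alone S6-7 was higher than S5 (2.73, SE 0.74, n = 3 and 2 membranes, adjusted p = 0.0114), but D went the other way, with 0.89 at S6-7 and 1.45 at S5. CG4500, the acyl-CoA synthetase hll, read -3.77, -3.14 and -3.25 on A to C at S2-3, -1.97, -3.0 and -0.55 on A, C and D at S5, -2.01, -3.01, -3.60 and -0.07 on A to D at S6-7, -2.20, -1.87, -2.71 and 0.19 on A to D at S8-9 and -2.22, -1.38, -3.23 and 0.34 on A to D at S10-12. At S5 and at S8-9 all its membranes lay above those of S2-3, though its S2-3 levels come from A to C and D supplies the highest later levels. On A it was higher than at S2-3 by 1.55 to 1.80 in the 4 intervals, and on C by -0.35 to 0.54.

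CG4769, cytochrome c1 of complex III, read -2.02, -2.19 and -1.03 on A, B and D at S2-3, -1.07, -1.61 and -2.21 on A, C and D at S5, -1.84, -2.79, -3.53 and -1.08 on A to D at S6-7, -1.89, -1.45, -2.40 and -0.52 on A to D at S8-9 and -2.23, -1.34, -3.21 and -0.01 on A to D at S10-12. Its differences from S2-3 were 0.12, -0.56, 0.18 and 0.05. ND-15 (CG11455), a subunit of complex I, had means of -1.93 at S2-3 and -1.06 to -1.59 later. CG5854, which has an NAD-dependent epimerase domain, read -2.91, -0.66 and -1.97 on A, C and D at S2-3, -4.09, -1.88, -3.94 and 0.26 on A to D at S5, -2.32, -2.04, -3.15 and -0.95 on A to D at S6-7, -2.22, -1.17, -2.88 and -0.74 on A to D at S8-9 and -1.53, -0.56, -2.22 and -1.55 on A to D at S10-12. At S5 its D membrane was higher than at S2-3 by 2.23 while C was at -3.28 relative to S2-3. CG12582, the beta-mannosidase beta-Man, was at a mean of -3.12 at S2-3 and -1.38 to -2.07 later.

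Among the genes of nucleus, chromatin and RNA stood the brightest member. CG34335 is annotated as a long non-coding RNA in RefSeq. Its levels were 2.86, 3.21, 2.73 and 0.87 on A to D at S2-3, 2.38, 2.70 and 2.89 on A, C and D at S5, 3.06, 4.28, 1.38 and 1.46 on A to D at S6-7, 2.66, 2.79, 1.58 and 0.87 on A to D at S8-9 and 1.90, 0.50 and -0.18 on A, C and D at S10-12. It was above RP49 in 17 of 18 measurements, the exception being D at S10-12, and its mean of 0.74 there was its lowest. S10-12 lay below S5 with no overlap, by -0.48, -2.20 and -3.07 on A, C and D. This difference of -1.92 did not pass the test without the letter (SE 0.89, n = 3 and 3 membranes, adjusted p = 0.613). It fell in the block fit (SE 0.49, adjusted p = 0.0173), but not when the RP49 spots were averaged by their mean (-1.40, adjusted p = 0.200), nor without B, C or D (adjusted p = 0.0542, 0.190 and 0.0607). The clone shared with A to C read 1.75 at S2-3, 3.78 at S5 and 0.54 at S10-12 on D. A further clone on D read -1.73, 0.13 and -1.71, lower by 2.23 to 3.65 in the 5 intervals.

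CG18591, which encodes the spliceosomal core protein SmE, was one of the steadier members, with means of -1.33, -1.54, -1.35, -1.27 and -1.0 and levels within -0.19 to -2.40. Polr3G (CG33051), a subunit of RNA polymerase III, read -1.16, -0.83, -1.72 and -0.46 on A to D at S2-3, -1.19, -1.59 and 0.45 on A, C and D at S5, -0.61, -1.38 and 0.53 on A, B and D at S6-7, -1.42, -2.11 and 0.85 on A, C and D at S8-9 and -1.90, -0.76, -2.69 and 1.03 on A to D at S10-12. Its D membrane was higher than at S2-3 in every later interval, by 0.91 to 1.50, while A was higher by 0.55 at S6-7 only. Hinfp (CG17829), a regulator of histone gene transcription, read -3.59, -3.07 and -2.06 on A, B and D at S2-3, -2.90, -1.32 and -3.29 on A to C at S5, -4.36 and 0.05 on C and D at S6-7, -2.50, -3.34 and -0.01 on A, C and D at S8-9 and -1.74, -1.10, -2.85 and 0.18 on A to D at S10-12. On A, B and D it was higher at S10-12 than at S2-3 by 1.85, 1.97 and 2.24.

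CG6686, the fly counterpart of the splicing factor SART1, read -3.43 and -1.82 on A and D at S2-3, -1.91, -2.58 and -0.18 on A, C and D at S5, -1.59 and -1.01 on A and D at S6-7, -1.78, -1.38 and -0.91 on A, B and D at S8-9 and -1.67, -0.51 and -0.91 on A, B and D at S10-12. From S6-7 on, none of the levels kept for it overlapped those of S2-3. However, C at S6-7, left out because its duplicates differed too much, read -3.36, below the S2-3 level on D. CG14641, an RNA-binding protein, had the second-widest range of later means, 2.35. It read -2.61 and -1.30 on A and C at S2-3, -3.93, -2.65, -4.69 and 0.11 on A to D at S5, -1.09, -1.37, -2.83 and 0.12 on A to D at S6-7, -1.47, -2.08 and 0.49 on B, C and D at S8-9 and -1.27 and 0.39 on A and D at S10-12. On A the level at S10-12 exceeded that at S5 by 2.66, on D by 0.28, and the difference of 2.35 did not pass the test (SE 1.10, n = 2 and 4 membranes, adjusted p = 0.613). Of the remaining genes, lawc (CG32711) had means of -2.45 at S2-3 and -0.61 to -1.56 later, and Panx (CG9754), which acts in piRNA-guided silencing, -2.31 and -1.80 to -2.32. The acetyltransferase complex subunit wda (CG4448) had -2.47 and -1.36 to -2.31. The nucleoporin Nup93-1 (CG11092) was measured on at least 2 membranes only at S6-7 (-2.71) and S2-3 (-2.24).

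The signaling and trafficking members included a bright phosphatase. CG7956, now sp3, has a phosphoinositide phosphatase domain and was the second-brightest gene at S2-3. It read 0.48, 1.27 and 1.66 on A, B and D at S2-3, -0.45, -0.25 and 1.43 on A, C and D at S5, 0.44, 0.11, 0.25 and 1.13 on A to D at S6-7, -0.16, 0.00, -0.21 and 1.63 on A to D at S8-9 and 0.73 and 3.80 on B and D at S10-12. All membranes that could be compared were lower than at S2-3 at S5, S6-7 and S8-9, and at S10-12 B was lower by -0.54 and D higher by 2.14. Its S10-12 mean of 2.26 exceeded that of S5 by 2.02, which did not pass the test (SE 0.99, n = 2 and 3 membranes, adjusted p = 0.674). Only D had a level in both, 1.43 and 3.80. A and C, left out at S10-12 because their duplicates differed too much, both read -1.07, below their S5 levels. B, left out at S5 for the same reason, read 0.99 there, above its 0.73 at S10-12. CG31163, now SKIP, encodes an SH3 domain protein. Its levels were -3.54, -3.40 and -1.67 on A, B and D at S2-3, -2.89, -0.94, -3.80 and -1.52 on A to D at S5, -3.10, -2.56, -4.29 and -1.27 on A to D at S6-7, -2.46, -1.34, -3.14 and -0.61 on A to D at S8-9 and -1.76, -0.63, -3.21 and -0.04 on A to D at S10-12. On each of A to D, S10-12 was higher than S6-7, by 1.34, 1.92, 1.08 and 1.23, although the levels of all membranes overlapped. The difference of 1.39 did not pass without the letter (SE 0.83, n = 4 and 4 membranes, adjusted p = 0.945). It rose in the block fit (SE 0.36, adjusted p = 0.0160), but with the block it missed the threshold when A, B or C was left out (adjusted p = 0.0621, 0.139 and 0.0637), with 75th percentile scaling (0.0501) and with the mean of RP49 spots (0.205).

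CG15628, with an N-acetyltransferase domain, was printed as 6 clones on D, which spanned 2.06 to 3.08 in log2 within 1 interval. Its levels were -2.26 and -1.04 on A and D at S2-3, -0.12, 0.62, -1.01 and 0.29 on A to D at S5, -0.63, -1.18 and -0.43 on A, B and D at S6-7, -1.07, -1.74 and -0.34 on A, C and D at S8-9 and -0.80, -0.13, -2.10 and -0.90 on A to D at S10-12. At S5 all 4 membranes lay above those of S2-3. Rnf11 (CG32850), a RING finger protein, read -3.97 and -1.70 on A and D at S2-3, -2.29, -0.37 and -0.97 on A, B and D at S5, -3.55 and -0.71 on A and D at S6-7, -1.37 and -0.65 on B and D at S8-9 and -2.05, -0.49 and -0.09 on A, B and D at S10-12. CG5026, related to myotubularin phosphatases, read -2.70 and -2.66 on B and D at S2-3, -2.0, -2.08, -2.56 and -0.76 on A to D at S5, -3.12, -2.87, -3.79 and -1.46 on A to D at S6-7, -2.75, -3.0 and -1.30 on A, C and D at S8-9 and -2.24, -1.32, -2.50 and -1.50 on A to D at S10-12. Its S2-3 levels lay below all levels of S5 and of S10-12. ASPP (CG18375), which has ankyrin repeats and an SH3 domain, read -1.22, -1.56, -2.82 and -1.13 on A to D at S2-3, -2.45, -2.13, -2.63 and 0.25 on A to D at S5, -1.05, -2.62 and -0.90 on B, C and D at S6-7, -1.90, -0.69, -3.14 and 0.15 on A to D at S8-9 and -1.67, -0.44, -3.13 and -1.31 on A to D at S10-12. Its differences from S2-3 were -0.06, 0.16, 0.29 and 0.04, within the spread of the membranes.

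Of the remaining signaling and trafficking members, CG6954, now part of the sleep gene wake, had means of -2.82 at S2-3 and -1.93 to -2.26 later. The calcium-binding protein Pef (CG17765) had -2.38 and -1.74 to -3.03, and the kinase anchor spoon (CG3249) -2.21 and -1.12 to -2.10. The N-terminal acetyltransferase Naa30A (CG11412) had -2.08 at S2-3 and was measured on 1 membrane at S10-12. Rich (CG9063), which acts in membrane trafficking, had a level on 1 membrane only at S5 and at S8-9, with -1.44 at S10-12 and -2.74 at S2-3. CG34404, related to the human MCC protein, was measured on D alone at S6-7 and S8-9. It read -1.38 and 2.61 on A and D at S10-12 and -2.95 and -0.17 on A and D at S2-3.

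Among the members with no role given here, CG15480 had the highest mean difference from S2-3 of all, 2.34. It read -3.04 and -1.94 on A and D at S2-3, -0.11, -0.39 and -0.38 on A, C and D at S5, -0.45, -0.57 and -0.20 on A, B and D at S6-7, 0.53 and 0.79 on B and D at S8-9 and -1.66, -0.23 and 0.20 on A, B and D at S10-12. All later levels that were kept lay above both of S2-3. However, C at S10-12, left out because its duplicates differed too much, read -2.36, below the S2-3 level on D. That D level averages 3 clones, which read from -3.30 to -0.85, and later D levels average 4. The differences from S2-3 were 2.20 (SE 0.92), 2.08 (SE 0.92), 3.15 (SE 1.01) and 1.93 (SE 0.92). CG31800 read -4.29 and -2.73 on A and D at S2-3, -2.37, -2.53, -3.06 and -0.36 on A to D at S5, -3.13, -4.31 and -0.44 on B, C and D at S6-7, -2.42, -2.05, -3.47 and -0.20 on A to D at S8-9 and -2.31, -0.81, -3.75 and -0.40 on A to D at S10-12. Where the same letter was measured, it was higher than at S2-3 by 1.87 to 1.98 on A and by 2.30 to 2.54 on D. The range on A lacks S6-7, where A, left out because its duplicates differed too much, read -3.66 against -4.29 at S2-3.

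CG12581 and CG6915 came next by mean difference, with 1.68 and 1.63. CG12581 read -4.24 and -2.95 on A and D at S2-3, -3.16 and 0.08 on C and D at S5, -2.03, -3.54 and -0.67 on A, C and D at S6-7, -2.20, -2.16, -2.33 and -0.18 on A to D at S8-9 and -3.47 and -1.18 on A and D at S10-12. CG6915 read -3.44, -2.71 and -3.68 on A to C at S2-3, -3.78 and -0.72 on A and D at S5, -1.65, -2.69 and -0.08 on A, B and D at S6-7, -2.76, -1.64, -2.55 and 0.38 on A to D at S8-9 and -2.57 and 0.16 on A and D at S10-12. The first was higher than at S2-3 on each letter measured in both, by 0.77 to 3.03. The second had no D value at S2-3, and on A its differences were -0.34, 1.79, 0.68 and 0.87. CG14570 and CG32801 were among the 6 members with the widest range of later means, 1.63 and 1.53. CG14570 read -4.01, -3.84, -3.86 and -1.53 on A to D at S2-3, -1.05, -3.59 and -0.73 on B, C and D at S5, -3.71, -5.28 and -0.52 on A, C and D at S6-7, -2.27, -0.85, -3.01 and -0.08 on A to D at S8-9 and -2.17, -1.10, -3.80 and 0.93 on A to D at S10-12. CG32801 read -3.31 and -3.12 on A and B at S2-3, -4.32 and -0.47 on A and D at S5, -2.22, -3.39 and -0.39 on A, C and D at S6-7, -2.55, -1.76, -2.97 and -0.10 on A to D at S8-9 and -2.66 and 0.94 on A and D at S10-12. Membrane D stood highest for both genes in each interval that measured it.

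Of the 6 members with the lowest mean difference from S2-3, 3 have no role given here. CG12817, near the level of RP49, read 0.05, 0.68 and -1.43 on A, B and D at S2-3, 0.31, -1.26 and -0.96 on A, C and D at S5, -0.07, 0.12, -1.78 and -2.15 on A to D at S6-7, 0.01 and -1.32 on A and D at S8-9 and 0.97, 0.99 and -2.15 on A, B and D at S10-12. Unlike most members it was lowest on D, among the levels kept, at S2-3, S6-7, S8-9 and S10-12. However, C at S8-9, left out because its duplicates differed too much, read -2.02, below D. CG15098 read -1.16, -1.70 and -0.49 on A, B and D at S2-3, -1.48, -1.66, -2.21 and -0.85 on A to D at S5, -1.64, -3.07, -3.19 and -0.62 on A to D at S6-7, -2.77, -2.35, -3.10 and -0.44 on A to D at S8-9 and -2.43 and 0.34 on A and D at S10-12. On A it was lower than at S2-3 in each later interval, by -0.32 to -1.61. CG4887 read -2.94 and -1.95 on B and D at S2-3, -4.51 and -1.55 on A and D at S5, -2.94, -3.20, -3.89 and -1.81 on A to D at S6-7, -2.45, -1.85, -3.34 and -1.05 on A to D at S8-9 and -2.04, -3.10 and -1.70 on A, C and D at S10-12. Its mean difference was -0.16, although on D it was higher than at S2-3 by 0.14 to 0.90. CG41421 read -2.03, -1.18, -1.83 and -3.29 on A to D at S2-3, -0.73, 0.03, -1.75 and 0.60 on A to D at S5, -1.16, -1.65, -2.94 and 0.06 on A to D at S6-7, -1.30, -0.93, -2.39 and 0.07 on A to D at S8-9 and -1.54, -0.48, -2.87 and -0.06 on A to D at S10-12. On D it was higher than at S2-3 by 3.24 to 3.89, against -1.11 to 0.07 on C. At S2-3, however, its D level comes from 1 spot of 1 clone (-3.29) and its C level from the other clone (-1.83). On A at S2-3 these clones read -2.99 and -1.45, in that order, so clone and membrane cannot be told apart between D and C. The first clone was read on both D and A. From S2-3 to S10-12 it read -3.29, 0.66, -0.07, -0.49 and 0.12 on D. On A the same clone read -2.99, -1.63, -2.70, -1.30 and -1.54.

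The other 10 members of this class had S2-3 means of -1.82 (CG7970) to -3.48 (CG6327). Of these, CG11307, CG13454, CG16815, CG31223 and CG6327 were measured on at least 2 membranes in every interval. CG14915, CG1677, CG31687, CG34266 and CG7970 each had an interval with 1 membrane or none. Their widest later difference between interval means on at least 2 membranes was that of CG31687, 1.41 for S8-9 minus S6-7 (SE 1.03, n = 2 and 3 membranes, adjusted p = 0.995). That ranking leaves out CG14915 at S5, where only D kept a level (0.04). Readings of CG14915 left out there, because its duplicates differed too much, were 0.13, 0.29 and 0.03 on A to C. The gene read -2.89 and -4.33 on A and C at S6-7, and -3.21 and -3.0 on A and B at S2-3.

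Between the later intervals, which the selection did not use, limma without the letter called 0 members in any of the 6 comparisons. At S6-7 against S5 this was 0 of 48, beside 1.35% of all features, at S8-9 against S5 0 of 46, beside 0.485%, and at S10-12 against S5 0 of 46, beside 0.962%. At S8-9 against S6-7 and at S10-12 against S6-7 it was 0 of 47, beside 0.0% and 0.0%, and at S10-12 against S8-9 0 of 44, beside 0.0%. At an unadjusted p under 0.05, 0, 0, 3, 0, 2 and 1 members were found in this order: CG14641, CG34335 and CG7956, then CG11077 and CG34335, then CG7956. Of all features, 4, 7, 8, 2, 4 and 1 were higher and 5, 3, 7, 0, 5 and 4 lower at that threshold. The features tested numbered 222, 206, 208, 212, 212 and 201, so the named genes are not set apart by these counts. In the block fit the shares of all features called were 2.25, 5.34, 5.29, 0.472, 6.13 and 0.0%. It called 0 members except at S10-12 against S5 (1 of 46, CG34335) and at S10-12 against S6-7 (2 of 47, CG11077 and CG31163). These counts depended on membrane D. In the block fit on A to C alone 10 of 38 members were called at S6-7 against S5, 6 higher and 4 lower, beside 29.3% of features. At S8-9 against S5 it called 4 of 35 (CG11412, CG14641, CG5854 and CG9629), beside 19.5% of features, and at S10-12 against S5 3 of 29 (CG11077, CG5854 and CG9629), beside 20.8%. At S8-9 against S6-7 it called 2 of 40 (CG11077 and CG14570), beside 7.06%, at S10-12 against S6-7 6 of 29, beside 17.9%, and at S10-12 against S8-9 1 of 28 (CG11077), beside 4.29%. On membranes A to C alone, without the letter, 6.32, 4.55, 3.47, 0.0, 1.99 and 0.0% of features were called, and 2 members, CG9629 at S6-7 against S5 and CG11077 at S10-12 against S6-7.

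**Figure D4:**
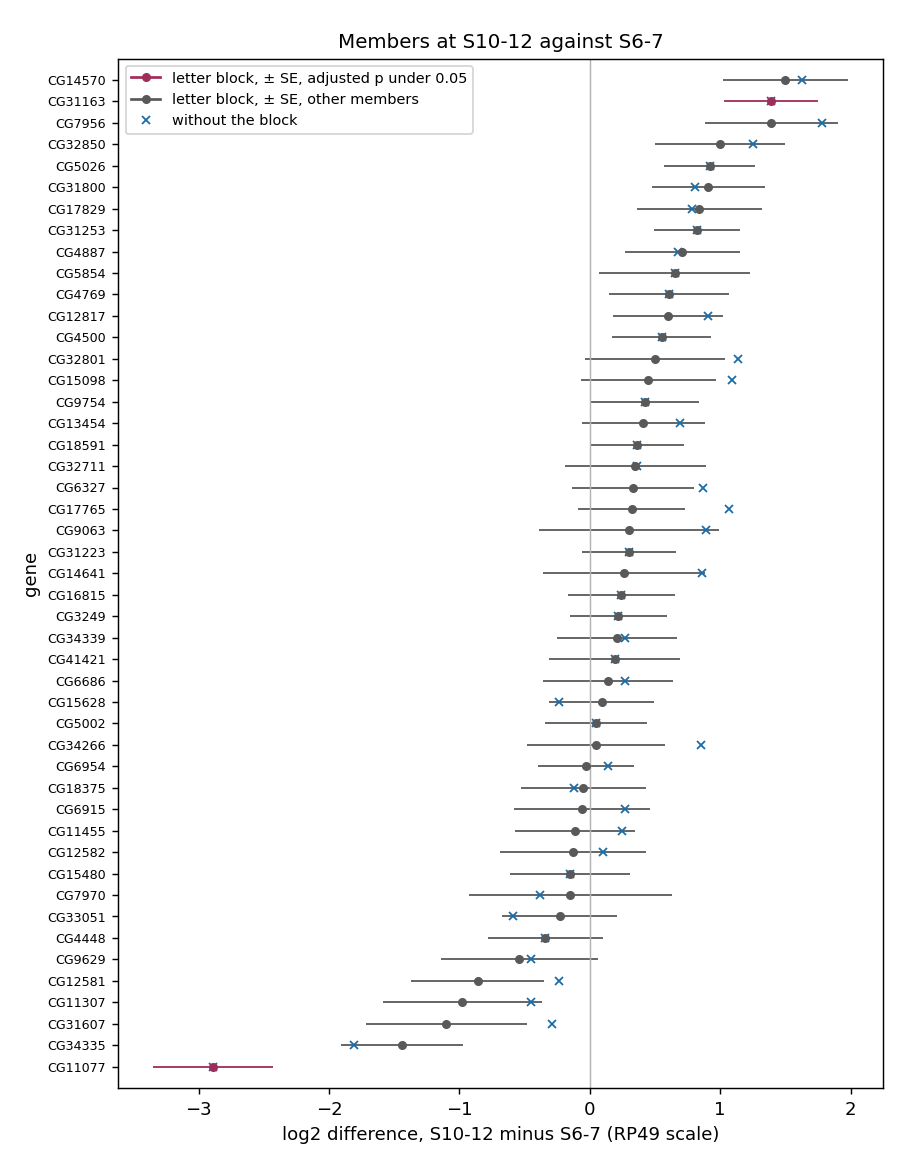
Log2 difference of S10-12 minus S6-7 on the RP49 scale (horizontal axis) for the 47 members measured in both (rows), from the fit with the letter block (circles, with SE) and without it (crosses). CG11077 lies lowest at -2.89 and CG31163 is the other member past an adjusted p of 0.05 in the block fit, at 1.39.

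The median log2 difference of the members was -0.13 for S6-7 minus S5, 0.20 for S8-9 minus S5 and 0.24 for S10-12 minus S5. It was 0.32 for S8-9 minus S6-7, 0.36 for S10-12 minus S6-7 and 0.06 for S10-12 minus S8-9. All features gave -0.12, 0.30, 0.31, 0.43, 0.35 and -0.04. With 75th percentile scaling the members gave 0.01, -0.03, 0.19, -0.24, 0.22 and 0.30, and after quantile normalization -0.13, -0.07, -0.19, -0.05, -0.03 and -0.04. With the mean of RP49 spots they gave 0.55, 0.71, 0.50, 0.14, 0.03 and -0.12. Each of the 6 medians changed sign under at least 1 of these scalings. Among the 43 members measured throughout, the mean level was highest at S10-12 in 19, at S8-9 in 11, at S5 in 10, at S6-7 in 2 and at S2-3 in 1 (CG9629). It was lowest at S2-3 in 26. These tallies are on the RP49 scale, where the median of all features was also higher in every later interval than at S2-3. No tally is given for all features or under another scaling. Since the S2-3 signal chose the genes, no trait of the members is read from them.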

How the data were processed

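The authors deposited, for each membrane, the raw spot signal, its local background and the net intensity in arbitrary scanner units, and matched the clones to FlyBase gene names. From the deposited net intensity, spots with a net above 0 were kept where the raw signal reached 1 background SD over the mean of the background. Duplicate spots had a coefficient of variation of at most 0.5, the membrane median of RP49 was the scale, and the clones of a gene were averaged before log2. limma 3.58.1 (R 4.3.3) was fitted over 20 membranes, with Benjamini-Hochberg adjustment over all features measured on at least 2 membranes in both intervals and a threshold of 0.05. The SAM test of the study was not run. The fit was tested on simulated data.

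The membrane letter was used as a technical batch: deviations of same-lettered membranes correlated at -0.063 to 0.727, over 0.1 in 35 of 40 pairs. Members, role groups and lists were chosen with earlier results of these data known. Genes described membrane by membrane were the 6 with the highest and the 6 with the lowest mean difference from S2-3, the 4 brightest at S2-3, the 6 with the widest range over later intervals, and those of the study's list measured in all 5 intervals. Other genes were added after their values were seen. Alternatives covered scaling, background, signal and duplicate filters, clone summary, membranes needed, intervals in the fit, the letter block and leaving out each membrane. Gene names came from RefSeq by CG number. Python 3.11.15 and pandas 2.3.3 were used.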

Additional observations from a re-analysis of the deposited data

Results flagged for a closer look

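In 6 of 108 groups of 4 membranes 1 membrane lay far from the other 3 for its range, and chance alone gives about 1 in 20 such groups; 5 of the 6 were membrane D and 1 was membrane C. At S2-3, CG31607 read 1.00 on D and -3.56 to -3.20 on the others. CG14570 read -1.53 on D at S2-3, with the others at -4.01 to -3.84, and CG11307 read -1.75 on D, with the others at -3.15 to -3.03. CG11412 read -2.61 on C at S2-3 and -1.94 to -1.82 elsewhere. At S8-9, CG12581 read -0.18 on D and -2.33 to -2.16 elsewhere, and CG7956 read 1.63 on D and -0.21 to 0.00 elsewhere.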

How the results depend on the processing

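Without the letter block, the 0 members called became, at S5 against S2-3, 2 with RP49 and dap scaling, 3 with no signal rule, 1 with no limit on duplicates, 20 with the replicate block and 0 to 1 without each membrane. At S6-7 against S2-3 they became 1 with no signal rule, 9 with the block and 0 to 2 without each membrane. At S8-9 against S2-3 they became 2 with quantile normalization and with 2 intervals in the fit, 15 with the block, 0 to 1 without each membrane, and 1 with 75th percentile scaling, normexp, no signal rule, no limit on duplicates or the median of clones. At S10-12 against S2-3 they became 1 with no signal rule and 16 with the block. At S6-7 against S5 they became 1 with no limit on duplicates and 0 to 1 without each membrane. The block gave 1 at S10-12 against S5 and 2 at S10-12 against S6-7, where leaving out each membrane gave 0 to 1.

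The following settings were chosen after seeing the data. With the replicate block, the 20, 9, 15 and 16 members called against S2-3 became 4, 2, 3 and 3 with 75th percentile scaling (0, 1, 0 and 2 higher), and 0, 5 and 7 at S5, S6-7 and S10-12 with the mean of RP49 spots. Leaving out each membrane gave 10 to 17, 3 to 7, 9 to 14 and 9 to 17. The share of all features called against S2-3 is not given for these settings, and nothing is read from the counts. Between later intervals, leaving out each membrane gave 0 to 10 at S6-7 against S5, 0 to 4 at S8-9 against S5, 0 to 3 at S10-12 against S5, 0 to 2 at S8-9 against S6-7, 1 to 6 at S10-12 against S6-7 and 0 to 1 at S10-12 against S8-9, the highest each time without D, where the share of all features called was also above that of the block fit over all membranes. With 75th percentile scaling 1 was called at S6-7 against S5 and 1 at S10-12 against S6-7. With the mean of RP49 spots 0 were called at S10-12 against S5 and 1 at S10-12 against S6-7. The causes were not tested. Of 116 differences from S2-3 of named genes, 34 had the opposite sign with 75th percentile scaling and 30 after quantile normalization. Over all alternatives together, 170 of 1618 did. Few membranes and weak signals near background limit the precision.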
